A study of Mus musculus with 6 samples.

Results

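The baseline transcriptome of the cultured control hepatocyte was described from 3 of the 6 RNA sequencing libraries of the series, those labelled with the control genotype Sucnr1 fl/fl. These mice carry loxP sites around exon 2 of both copies of Sucnr1, which encodes a receptor for extracellular succinate, and no Alb-Cre transgene, so the floxed gene is intact. They are the controls of mice in which Cre, driven by the hepatocyte promoter of Alb, deletes the gene (Alb-Cre +/- Sucnr1 fl/fl), and those knockout libraries were not used for any value given here. The mice were fed a chow diet, and their age was not given for this experiment. Cells of the left lateral lobe were released by enzymatic perfusion, passed over a density gradient and kept overnight on collagen in a medium with serum, high glucose, pyruvate and glutamine. Replicate 1 was extracted on day 1 and replicates 2 and 3 on day 2. Each library was a separate sample, and with a single group no test was made: all values are levels and their spread.

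The hepatocyte is the parenchymal cell of the liver, and it makes most of the proteins of the blood plasma. It also stores and releases glucose, turns ammonia into urea, builds and burns fat, and oxidises foreign compounds with cytochromes P450. Once plated, hepatocytes are known to flatten, build up their cytoskeleton and lose part of their liver-specific expression, and the attached layer always holds some other cells of the lobe.

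The libraries held 38770694, 30504248 and 31817961 counts of read pairs for replicates 1, 2 and 3. A pair counted at several genes would enter these totals more than once. Levels of different genes are compared in TPM, counts divided by exon length and scaled to the same fixed total in each library. Libraries are compared in CPM, each gene's share of the counts of its library on the same total, scaled with TMM factors, which correct for a few genes that take a large share of a library. The choice matters between libraries: relative to replicate 3, any TPM stood 1.15 times higher in replicate 2 and 1.06 times higher in replicate 1 than the CPM of the same gene. Genes that tell the sex of the mice pointed the same way in each library: Ddx3y, a Y-linked helicase, had 2509, 1818 and 2098 counts, and Xist, which is made from an inactive X chromosome, had 0, 0 and 1.

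Of the 25184 genes in the table, 11192 reached 1 CPM in all 3 libraries and 10469 reached 1 TPM. Expression was steeply ranked. The most abundant genes that together held 50% of the counts numbered 113 in replicate 1, 124 in replicate 2 and 99 in replicate 3. The 20 most abundant genes of each library took 25.4%, 23.9% and 26.8% of its counts. A mean of at least 1000 TPM was reached by 104 genes, of which 45 encode secreted plasma proteins, 12 are mitochondrially encoded protein genes and 10 are annotated pseudogenes. Of the rest, 2 were mitochondrial rRNA or tRNA genes and 35 were in none of these classes.

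All 5 hepatocyte markers were present. Alb, the gene of serum albumin (chr5:90460897-90476602, GRCm38), had the highest level of all genes, with 48980, 42304 and 50402 TPM and 5.93%, 5.16% and 6.36% of the counts. Apoa1, the main protein of high density lipoprotein, had 7717, 8068 and 7191 TPM. Hp, which binds free haemoglobin, had 5889, 6148 and 5775 TPM. In CPM the ratio of the highest to the lowest library was 1.37 for Alb, 1.04 for Apoa1 and 1.08 for Hp. Cyp2e1, an ethanol-oxidising P450 of the cells around the central vein, had 1040, 2015 and 1172 TPM, and its CPM was 1.78 times higher in replicate 2 than in the lowest library. Hnf4a, the nuclear receptor that maintains hepatocyte identity, stood far lower, at 69.9, 109 and 66.6 TPM and rank 887. The order of the 5 markers by level was the same in each library, from Alb down to Hnf4a.

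**Figure D1:**
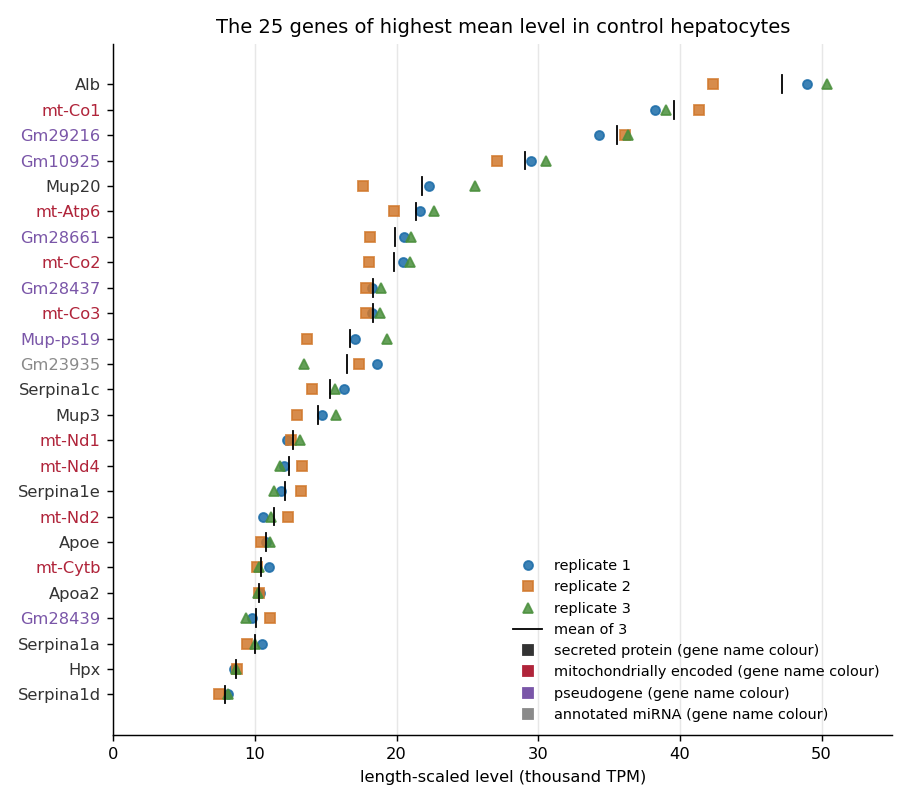
Length-scaled level of the 25 genes of highest mean level, in units of 1000 TPM on a linear axis from 0, with 1 symbol for each of the 3 control libraries and a line at their mean. Gene names are coloured by kind, and 10 name secreted proteins, 8 mitochondrially encoded proteins, 6 pseudogenes and 1 an annotated miRNA.

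The sequence shown first is that of the Alb promoter, because Alb stood above every other gene, followed by those of Fga, a fibrinogen chain, and Gc, the vitamin D carrier. Each is the stretch of 150 bases that ends just before the RefSeq transcription start (GRCm38.p6), read in the direction of the gene: chr5:90460720-90460869 (plus strand) for Alb, chr3:83026003-83026152 (plus strand) for Fga and chr5:89457899-89458048 (minus strand) for Gc. Capitals mark the letters GTTAATNAT on either strand, a form of the site bound by HNF1 factors.
Alb: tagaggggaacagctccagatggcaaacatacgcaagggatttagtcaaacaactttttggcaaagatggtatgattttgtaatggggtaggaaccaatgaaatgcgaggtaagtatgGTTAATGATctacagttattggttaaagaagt
Fga: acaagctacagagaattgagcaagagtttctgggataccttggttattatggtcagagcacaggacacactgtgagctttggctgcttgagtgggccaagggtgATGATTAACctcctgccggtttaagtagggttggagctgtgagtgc
Gc: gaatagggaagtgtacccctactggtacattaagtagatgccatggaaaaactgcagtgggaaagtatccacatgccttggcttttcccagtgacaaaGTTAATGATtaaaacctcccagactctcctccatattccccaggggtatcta

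The capitals began 32 bases before the start in Alb, 46 in Fga and 52 in Gc. Promoters from 250 bases before to 50 bases after the start were found for 54 of the 100 genes of highest level. These letters were in 5 of the 54 (9.26%), with Igfbp1 and Pzp beside the genes shown, and in 0.940% of 27025 promoters of all genes. Among 134 promoters of secreted plasma protein genes, 13 held them (9.70%). The letters TATAAA were in 13 of the 54 (24.1%) and in 15.7% of all promoters. The letters CAAAGTCCA, a form of the HNF4A site, and TTGCGCAAT, a form of the C/EBP site, were in 0 of the 54, and in 0.555% and 0.0518% of all promoters. These matches are letters in a window, and no binding was measured.

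Genes of secreted plasma proteins, 174 in all, held 31.0%, 31.5% and 32.3% of the length-scaled level. Their mean share was 31.6% ± 0.659 (SD, n = 3), and 165 of the 174 reached 1 CPM in all libraries. Among the plasma carriers, the level of Alb was followed by that of Hpx, which binds haem, at 8511, 8770 and 8679 TPM. Trf, the iron carrier transferrin, had 7393, 7092 and 6929 TPM, and Ttr, the carrier of thyroid hormone and retinol-binding protein, 6839, 5911 and 6161 TPM. Of the 24 carriers, 21 had a mean of at least 100 TPM, and the lowest had 14.1 TPM.

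Protease inhibitors held 6.65% of the length-scaled level, and the copies of Serpina1, the gene family of alpha-1 antitrypsin, led them. Serpina1c had 16289, 14037 and 15656 TPM and Serpina1e 11864, 13247 and 11329 TPM. Serpina1a and Serpina1d had means of 9990 and 7888 TPM. Together the 5 copies from Serpina1a to Serpina1e held 52627, 49434 and 50814 TPM, more than Alb in 3 of 3 libraries. In CPM, which is not divided by length, their sum of 45665, 39406 and 46592 was below Alb at 60898, 48238 and 66208. The copies are alike, with 58.5% of the 100-base windows of Serpina1c and 14.8% of those of Serpina1e also found in another gene. How read pairs matching several copies were counted was not stated, so the division between them is uncertain. Their sum is uncertain too, since a pair counted at each copy would raise it. Matching chromosome 1 copies of mt-Co2, mt-Co3, mt-Nd4l and mt-Nd3, described below, carried nearly the full count of the gene in each library. The copies of mt-Co1 and mt-Nd4 carried less and that of mt-Atp6 more. Whether pairs of the Serpina1 copies were counted in the same way was not tested. In CPM, Serpina1e was steadier, with a highest to lowest ratio of 1.02 where that of Serpina1c was 1.28.

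Apolipoproteins were led by Apoe, a ligand for lipoprotein uptake, at 10755, 10411 and 11094 TPM. Apoa2, of high density lipoprotein, had 10380, 10310 and 10250 TPM, and Apoc1 a mean of 4341 TPM ± 62.7 (SD, n = 3). Of the 18 genes, 15 had at least 100 TPM. Apoc2, the activator of lipoprotein lipase, had no count in any of the 3 libraries. In the annotation used here, 79.5% of its exon bases were also exons of Gm44805 on the same strand, a gene that had no count either. How read pairs lying in 2 genes were counted was not stated, so the 0 of Apoc2 is not a measure of its level. The same holds in part for Trf, where Gm20425 covered 63.5% of the exon bases.

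Acute phase, coagulation and complement genes held smaller shares of the length-scaled level than the apolipoproteins, 2.55%, 1.57% and 0.924% against 3.85%. The 3 fibrinogen chains Fga, Fgb and Fgg had means of 3892, 3034 and 4084 TPM, and their sum was 11844, 11024 and 10162 TPM. Hamp, the iron hormone hepcidin, was more variable, with 4557, 2859 and 3589 TPM. C3, the central component of complement, had 2781, 2306 and 2137 TPM, and Vtn, which limits the terminal complement complex, 1668, 1559 and 1539 TPM. Plg, the precursor of plasmin, had a mean of 881 TPM ± 88.3 (SD, n = 3). The lowest of the coagulation genes had 0.673 TPM and the lowest of the complement genes 0.388 TPM, so both groups held genes of very low level too. Among hepatokines and secreted growth factors the levels fell from Ahsg, the glycoprotein fetuin-A, at a mean of 4731 TPM, through the selenium carrier Selenop at 2521 TPM and Igfbp1, which binds insulin-like growth factors, at 1360 TPM, to Gdf15, a stress-induced hormone, at 292 TPM.

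Major urinary proteins, small lipocalins that carry pheromones into the urine of male mice, were the most variable of the secreted groups. The 22 genes held 6.15%, 8.47% and 8.41% of the length-scaled level. Mup20 had 22254, 17595 and 25520 TPM, and Mup3 had 14734, 12970 and 15752 TPM. Both were lowest in replicate 2. The sum of the other 20 genes went the other way, with 14271, 28721 and 26226 CPM, so that replicate 1 stood lowest. Not each of the 20 did so, since Mup21, named after its values were seen, had 197, 181 and 285 CPM. Mup7, a member of this block, had 4091, 9482 and 7689 TPM, and Mup22 had 4087, 7142 and 6667 TPM. Of the 19 members with a mean of at least 10 CPM, 11 had a highest library at least 2 times the lowest. Over all 7070 genes of that level the share was 4.05%. Of the windows of Mup7 81.6% were shared with another gene and of those of Mup22 100%, against 2.94% for Mup3 and 38.8% for Mup20. Counts of single genes of this block are therefore uncertain, while that of Mup3 is less so. The sum of the block and the share of the 22 genes are uncertain too. How pairs matching several genes were counted was not stated, and a pair counted at each gene would raise them.

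Mitochondrially encoded RNA was the second large component. The 13 protein genes held 16.2%, 16.5% and 16.5% of the length-scaled level and 8.57%, 9.03% and 9.08% of the counts. A subunit of complex IV, which reduces oxygen, came first, mt-Co1 at 38231, 41372 and 39045 TPM. Of the same complex, mt-Co2 had 20457, 18062 and 20972 TPM and mt-Co3 18266, 17841 and 18862 TPM. mt-Atp6, of the ATP synthase, stood above mt-Co2 and mt-Co3 in each library, at 21642, 19826 and 22646 TPM. The subunits of complex I, which oxidises NADH, reached from mt-Nd1 at a mean of 12661 TPM down to mt-Nd6, the lowest of the 13, at 199 TPM. The only complex III subunit encoded there, mt-Cytb, had a mean of 10465 TPM. In CPM the highest to lowest ratio was 1.09 for mt-Co1 and 1.34 for mt-Co2, and 0 of the 13 reached 2.

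Next to these genes stood pseudogenes of nearly the same level. Annotated pseudogenes held 5.61% of the counts but 16.4% of the length-scaled level, and 7 of them lie in a row on the minus strand of chr1:24611535-24616197, a nuclear copy of mitochondrial DNA. Gm28661 carried 280214, 196167 and 245741 counts where mt-Co2 had 280273, 196290 and 245908. Gm28437 had 100% of the count of mt-Co3 in each library, and Gm10222 had 99.8% to 100% of that of mt-Nd4l. Aligned bases of these copies matched the mitochondrial gene with 0 mismatches. The copy of mt-Co1, Gm29216, differs by 1 mismatch in 483 aligned bases. It is a partial copy, 492 bases long against 1545 of mt-Co1, and had 28.5%, 27.8% and 29.6% of the mt-Co1 count. The stretch of 120 bases around that mismatch is shown from both genes to make the likeness visible, with the differing base in capitals.
mt-Co1: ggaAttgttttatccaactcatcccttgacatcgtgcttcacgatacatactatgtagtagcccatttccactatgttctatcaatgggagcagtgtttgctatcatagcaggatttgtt
Gm29216: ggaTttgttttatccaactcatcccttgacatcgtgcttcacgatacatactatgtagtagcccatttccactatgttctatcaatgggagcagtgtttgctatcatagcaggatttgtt

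Gm10925, the copy of mt-Atp6, had more counts than the gene itself, 136% in replicates 1 and 2 and 134% in replicate 3. Of the exon bases of mt-Atp8, 21.1% lie within mt-Atp6. Gm29216 and Gm10925 had ranks 3 and 4 of all genes by length-scaled level. Levels of these mitochondrial genes and of their copies cannot be told apart in this table. With pseudogenes and genes under 200 bases left out of the total, the mitochondrially encoded protein genes held 20.1% of the length-scaled level.

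**Figure D2:**
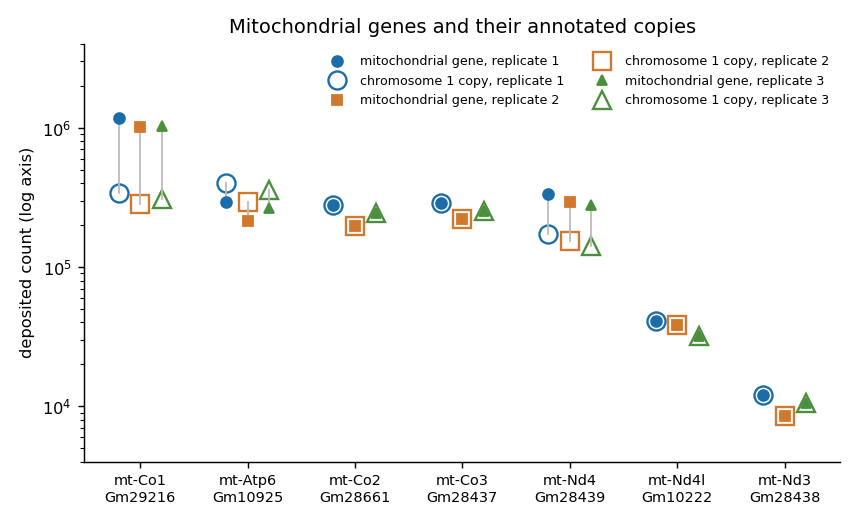
Deposited counts, on a log axis, of 7 mitochondrial genes (filled symbols) and of the annotated chromosome 1 copy of each (larger open symbols) in the 3 control libraries. For mt-Co2, mt-Co3, mt-Nd4l and mt-Nd3 the open symbol lies around the filled one, while the copies of mt-Co1 and mt-Nd4 lie below and that of mt-Atp6 above. The copies of mt-Co1 and mt-Nd4 are shorter than the gene, at 492 against 1545 bases and 876 against 1378 bases.

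Mup-ps19 and Gm23935, also among the 25 highest levels, need the same care. Mup-ps19, a pseudogene among the Mup genes, had 17052, 13682 and 19324 TPM, and 76.7% of its windows were shared. Gm23935, annotated as a miRNA of 57 bases, had 18640, 17345 and 13449 TPM but only 564, 481 and 430 CPM. Its rank by length-scaled level rests on the division by that short length. In the whole table, 265 of 7297 genes examined had at least 50% of their windows in another gene, and they held 13.8%, 15.3% and 15.7% of the counts.

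**Figure D3:**
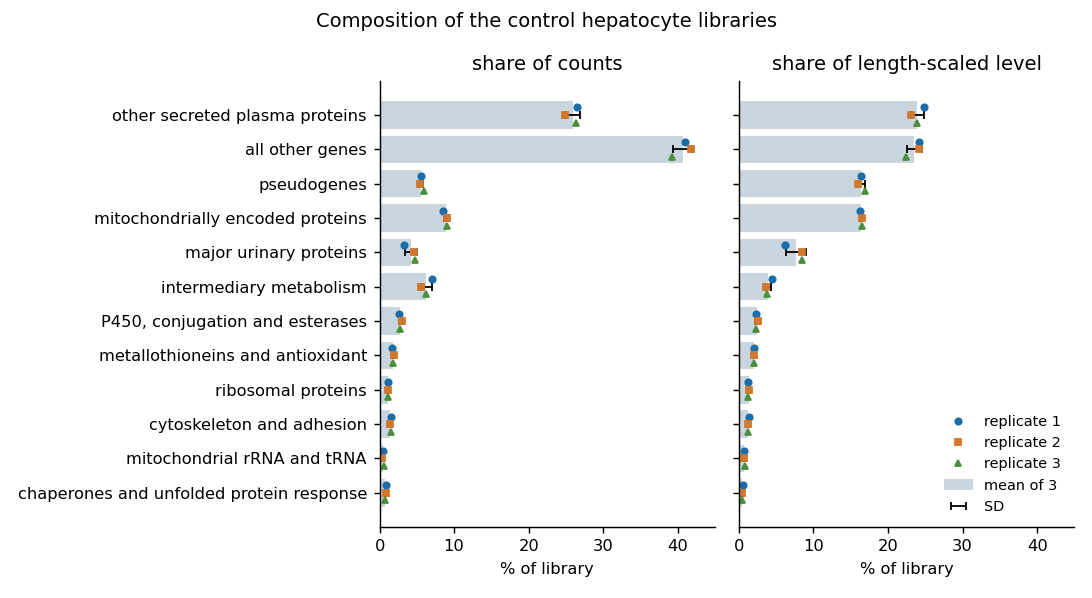
Share of each library held by 12 classes of genes, as counts (left) and as length-scaled level (right), in percent. Bars are the mean of 3 control libraries, error bars the SD and symbols the libraries, and mitochondrially encoded proteins and pseudogenes take about 16% each of the length-scaled level but under 10% each of the counts.

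Enzymes of intermediary metabolism, 212 genes, held 3.94% ± 0.420 (SD, n = 3) of the length-scaled level, far less than the secreted proteins. In the sugar pathways, Gapdh, of glycolysis, had 1434, 981 and 1319 TPM and Fbp1, a phosphatase of gluconeogenesis, 687, 552 and 658 TPM. Ldha, which interconverts pyruvate and lactate, had a mean of 592 TPM. Genes of both directions of the pathway were thus expressed together. Of its 26 members of at least 10 CPM, 20 were highest in replicate 1, while 36.1% of all genes were.

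The urea cycle was led by Ass1, which joins citrulline and aspartate, at 1781, 1257 and 1742 TPM. Cps1, which fixes ammonia in the mitochondrion, had 710, 588 and 595 TPM and Arg1, which releases urea, 575, 439 and 435 TPM. Glul, the glutamine synthetase of the innermost pericentral cells, had 311, 407 and 234 TPM. In CPM, Ass1, Cps1 and Arg1 were lowest in replicate 2, where Glul was highest. Amino acid catabolism was led by Cdo1, a cysteine dioxygenase, with a mean of 762 TPM ± 44.7 (SD, n = 3), and by Hpd and Tat of tyrosine breakdown, at 613 and 540 TPM. The CPM of Tat had a ratio of 1.93 between the highest and the lowest library. In the methionine cycle, Gnmt had 1324, 1130 and 1456 TPM and Bhmt 597, 384 and 455 TPM.

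Fatty acid oxidation and ketogenesis was led by Fabp1, the liver fatty acid-binding protein, at 6480, 5483 and 5391 TPM. Acaa2, a thiolase, had a mean of 622 TPM. In fat synthesis the level of Scd1, a desaturase, was above the rest, with 3717, 2278 and 3165 TPM. Dgat2, which completes triglycerides, had a mean of 354 TPM and the droplet protein Plin2 277 TPM. Cholesterol genes stood lower, with Sc5d, a late enzyme, at 189, 98.2 and 108 TPM and the sterol exporter Abca1 at 162, 120 and 111 TPM. TCA cycle genes were of middle rank, and none of the 25 reached 1000 TPM. The highest of that list was Glud1, at 310, 290 and 218 TPM, which releases ammonia from glutamate and is not itself a step of the cycle. Mdh1 and Sdhd had means of 262 and 155 TPM. Bile acid genes were led by Slc27a5, which activates bile acids, at 390, 385 and 416 TPM, and glycogen genes by Ugp2, which makes UDP-glucose, at a mean of 224 TPM.

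Of 59 cytochromes P450, 51 reached 1 CPM in all 3 libraries, and together they held 0.866% of the length-scaled level. Cyp2f2, a periportal P450, had 1433, 1133 and 1320 TPM, close to Cyp2e1. Cyp2d10 and Cyp2d9 had means of 607 and 548 TPM. Cyp2b9, which is higher in females, had no count. Conjugating enzymes and carboxylesterases, 54 genes, held 1.49%. Gstp1 and Gstp2, glutathione transferases that share 52.8% and 63.5% of their windows, had means of 2536 and 1357 TPM. Among metal-binding and antioxidant genes, Mt2 had 4956, 4070 and 5259 TPM and Mt1 2346, 1856 and 2380 TPM, both lowest in replicate 2. Hmox1, which degrades haem, had 3092, 2650 and 2681 TPM, and Ftl1, the ferritin light chain, a mean of 3587 TPM. Of the windows of Ftl1 60.4% were shared with another gene, so its level is uncertain.

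Markers of both zones of the lobule were present. Of 20 periportal markers, 13 had at least 100 TPM, led by Ass1, Cyp2f2 and Cps1, and Pigr, which carries IgA into bile, had a mean of 498 TPM. Of 21 pericentral markers, 7 had at least 100 TPM, and after Cyp2e1 came Rgn, a lactonase, at 367, 454 and 333 TPM and Cyp27a1 at 219, 261 and 212 TPM. The libraries differed in their balance. Of the 12 pericentral genes of at least 10 CPM, 9 were highest in replicate 2, and of the 20 periportal genes 0 were, while 36.4% of all genes were highest there. The summed CPM was 2999, 4258 and 3162 for the pericentral and 11848, 8281 and 11136 for the periportal genes. Both counts kept their direction with DESeq2 size factors and with library size alone. Under these, 9 and 10 pericentral and 0 and 1 periportal genes were highest in replicate 2. Of all genes, 34.8% were highest there with DESeq2 size factors and 57.8% with library size alone.

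Transcription factors of the lineage were expressed at low levels, with a median of 16.4 TPM over 41 genes, none of which was below 1 TPM. Cebpb, a factor of the acute phase and of liver growth, had 758, 837 and 667 TPM. Xbp1, of secretory capacity, had a mean of 321 TPM and Cebpa, of the resting adult cell, 237 TPM. The ratio of the highest to the lowest library was 1.09 for Cebpb, 1.18 for Xbp1 and 1.22 for Cebpa. Atf5, a stress-responsive factor, followed at 178 TPM.

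Keratins led the cytoskeleton. Krt18, the type I keratin of simple epithelia, had 4227, 3209 and 3841 TPM and its partner Krt8 3029, 2678 and 2486 TPM. The actins Actg1 and Actb had means of 1714 and 1594 TPM, nearly equal. Of the windows of Actg1 51.05% were shared with another gene, against 1.1% of those of Actb, so the level of Actg1 is less certain. Of 35 genes of cytoskeleton and adhesion, 16 had at least 100 TPM. Fetal, progenitor and YAP target genes were low as a group, since 10 of 21 were below 1 TPM. The exceptions were Spp1, the secreted matrix protein osteopontin, at 397, 337 and 429 TPM, and Ccn1, a target of YAP, at 152, 162 and 138 TPM. Klf6 and Sox9 had means of 60.0 and 48.0 TPM. Afp, the fetal counterpart of albumin, which was named after its value was seen, had a mean of 0.314 TPM.

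Of 28 immediate early and growth genes, 10 had at least 100 TPM and 8 were below 1 TPM. Junb, of the AP-1 complex, had 716, 572 and 655 TPM, Jund a mean of 446 TPM and the stress factor Atf3 365 TPM. Ier3, an early response gene, had 333, 195 and 279 TPM. Of the chaperones, P4hb, an oxidoreductase of the endoplasmic reticulum, had a mean of 738 TPM and Hspa8, a cytosolic chaperone of the HSP70 family, 660 TPM. Hspa5, the member of that family in the endoplasmic reticulum, had 467 TPM and Hsp90ab1 457 TPM. None of the 30 chaperone genes reached 1000 TPM.

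Receptors stood lower, and none of the 30 reached 1000 TPM. Asgr1, of the asialoglycoprotein receptor, had 382, 316 and 327 TPM and Egfr 206, 242 and 179 TPM. Asgr2, the partner of Asgr1, had a mean of 158 TPM. Sucnr1 (chr3:60081869-60087566), the gene floxed in these mice, had 258, 118 and 103 counts. This is 6.84, 3.62 and 3.37 CPM, and 7.85, 4.53 and 3.66 TPM, so that replicate 1 stood about 2 times above the lowest library and the gene ranked 6703. Of the genes that carry succinate and related acids, Slc16a1, a monocarboxylate transporter, had a mean of 53.7 TPM and the mitochondrial dicarboxylate carrier Slc25a10 42.6, 42.2 and 37.6 TPM. Both stood above the receptor in each library, while the lowest of the 9 genes of this list, a transporter, had a mean of 0.808 TPM.

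Markers of other liver cells were low beside those of the hepatocyte. In this bulk RNA, fewer cells of a type and less RNA per cell cannot be told apart. The 5 hepatocyte markers summed to 72353, 60274 and 77994 CPM. The 16 markers of Kupffer cells, the resident macrophages, summed to 97.7, 71.2 and 231 CPM, and 0 of them were without a count. Cd68, of lysosomes, had 39.9, 19 and 40.4 CPM, and Lyz2, a lysozyme, 9.20, 7.51 and 30.1 CPM. C1qb and C1qa, of the first complement component, had 18.9 and 16.5 CPM in replicate 3 and no more than 5.82 in the others. In CPM all 16 markers were highest in replicate 3, although Cd68 hardly above replicate 1, while 27.5% of the genes of at least 10 CPM were. Only 4 of the 16 had a mean of that level.

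The sinusoidal endothelium went with another library. Its 18 markers summed to 160, 92.4 and 89.9 CPM, and 16 of the 18 were highest in replicate 1. Of the genes of at least 10 CPM 36.1% were highest there, but only 3 of the 18 markers had that level. Cdh5, of endothelial junctions, had 44.2, 26.2 and 28.4 CPM and Pecam1 19.1, 11.6 and 11.9 CPM. The 18 markers of stellate cells and fibroblasts summed to 57.4, 27.0 and 17.8 CPM, and 15 were highest in replicate 1. With 0 of these 18 at a mean of 10 CPM, this count rests on genes of low level. The largest was Ecm1, a matrix protein, at 12.3, 6.13 and 4.65 CPM. Replicate 1 thus held the most RNA of endothelial and stellate markers and replicate 3 the most of macrophage markers.

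The remaining types were near the limit of detection apart from single genes. Of the 456 ± 79.0 CPM (SD, n = 3) summed over 12 cholangiocyte markers, Spp1 and Sox9 made up nearly all, and 8 of the 12 were below 1 TPM. Lymphocyte markers summed to 38.3, 27.0 and 69.4 CPM, mostly Ccl5, a chemokine, at 9.25, 12.6 and 37.2 CPM, and Ighm, of immunoglobulin M, at 23.5, 10.1 and 17.4 CPM. The other 14 had means of 0.00709 to 1.28 TPM. Neutrophil markers summed to 1.27, 1.75 and 7.20 CPM and mesothelial markers to 0.742, 0.276 and 0.982 CPM. Of the erythroid and platelet markers, Alas2, which starts haem synthesis in red cells, had a mean of 68.5 TPM and no other gene reached 10 TPM. Upk3b of the mesothelium had no count, and 3 counts over the 3 libraries would be 0.0297 CPM.

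**Figure D4:**
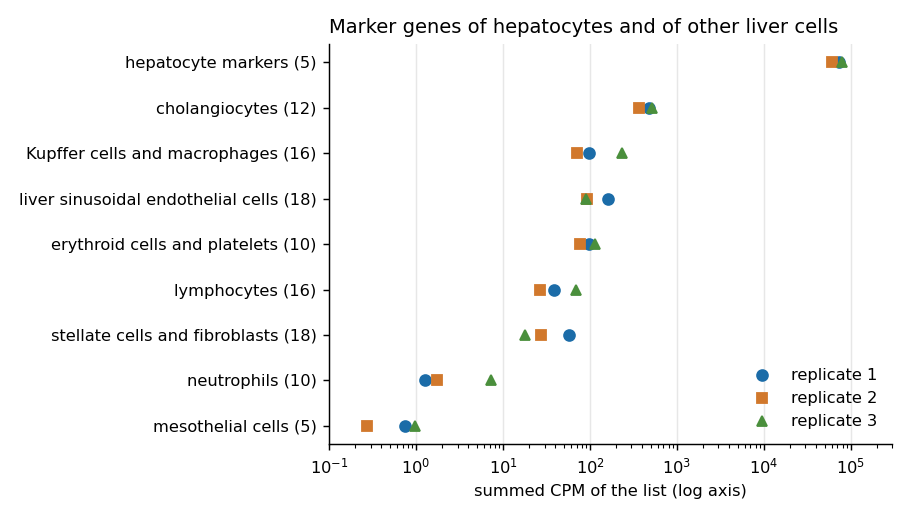
Summed CPM, on a log axis, of the marker genes of hepatocytes and of 8 other cell types in the 3 control libraries, with the number of markers in brackets. The hepatocyte markers lie at 60274 CPM or more and no other list above 519, and the Kupffer cell list is highest in replicate 3 while the endothelial and stellate lists are highest in replicate 1.

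The spread between the 3 libraries was larger than counting alone gives. Over 7070 genes with a mean of at least 10 CPM, the median coefficient of variation was 10.7% (quartiles 6.46% and 17.0%), and the median counting error was 3.04%. It was 17.3% for genes of 1 to 10 CPM, 10.7% for those of 10 to 100 CPM and 11.7% for those of at least 1000 CPM, so above 10 CPM it did not narrow further. The common biological coefficient of variation estimated by edgeR was 0.213. The libraries were no copies of each other: over 11697 genes of at least 1 CPM, chi-square per degree of freedom was 58.1 to 92.0 for the 3 pairs, and Pearson's r of log2 CPM was 0.978 to 0.980. The lowest of the 7070 genes still had 127 counts in a library.

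Of the 7070 genes, 286 (4.05%) had a highest library at least 2 times the lowest. Replicate 1 was highest in 138 of the 286, replicate 2 in 45 and replicate 3 in 103, while 36.1%, 36.4% and 27.5% of all 7070 were. The lowest library was replicate 1 in 98 of the 286, replicate 2 in 154 and replicate 3 in 34. Since replicate 1 is the only library of its day, the day and the mouse cannot be told apart. The 15 most variable genes fell into a few patterns. Several interferon-induced genes were lowest in replicate 1 and highest in replicate 3. Mx1, an antiviral GTPase, had 3.37, 10.3 and 24.6 CPM, Cmpk2, a mitochondrial nucleotide kinase, 56, 205 and 377 CPM, and Ifit3b, of the Ifit family, 56, 135 and 289 CPM. Ifit2 was apart in replicate 3 alone, with 35.6, 46.5 and 192 CPM.

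A second pattern was highest in replicate 2. Slc7a11, the cystine importer, had 11.3, 74.4 and 26.7 CPM, and Psat1, of serine synthesis, 7.08, 37.2 and 14.1 CPM. Cachd1, a calcium channel-related protein, had 4.74, 26.8 and 9.33 CPM, and Mup17 had 172, 820 and 450 CPM. In each of these replicate 1 was lowest. The pseudogenes Gm18852 and Gm18853, of which 97.1% and 97.0% of the windows are shared, had the same order. Angptl8, an insulin-induced inhibitor of lipoprotein lipase, was instead highest in replicate 1 and lowest in replicate 3, with 79.1, 23.7 and 15.4 CPM.

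A further pattern was of genes at a low level in replicates 1 and 2 and higher in replicate 3. Cd74, the invariant chain of antigen presentation, had 11.5, 15.5 and 50.5 CPM, Ctss, a lysosomal protease, 4.82, 5.09 and 20.1 CPM, and Gbp5, a guanylate-binding protein, 7.16, 8.43 and 30 CPM. Marcksl1, an actin-binding protein, had 13, 14.6 and 53.6 CPM. The 16 Kupffer cell markers, summing to 97.7, 71.2 and 231 CPM, were also highest there, and their part in these values was not tested. At the other end, the 5 steadiest genes were Myh14, Mdh2, Gm20319, Hacd2 and Tnfrsf1a, each with a ratio of no more than 1.01. Mdh2, the malate dehydrogenase of mitochondria, had 124, 125 and 125 CPM.

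**Figure D5:**
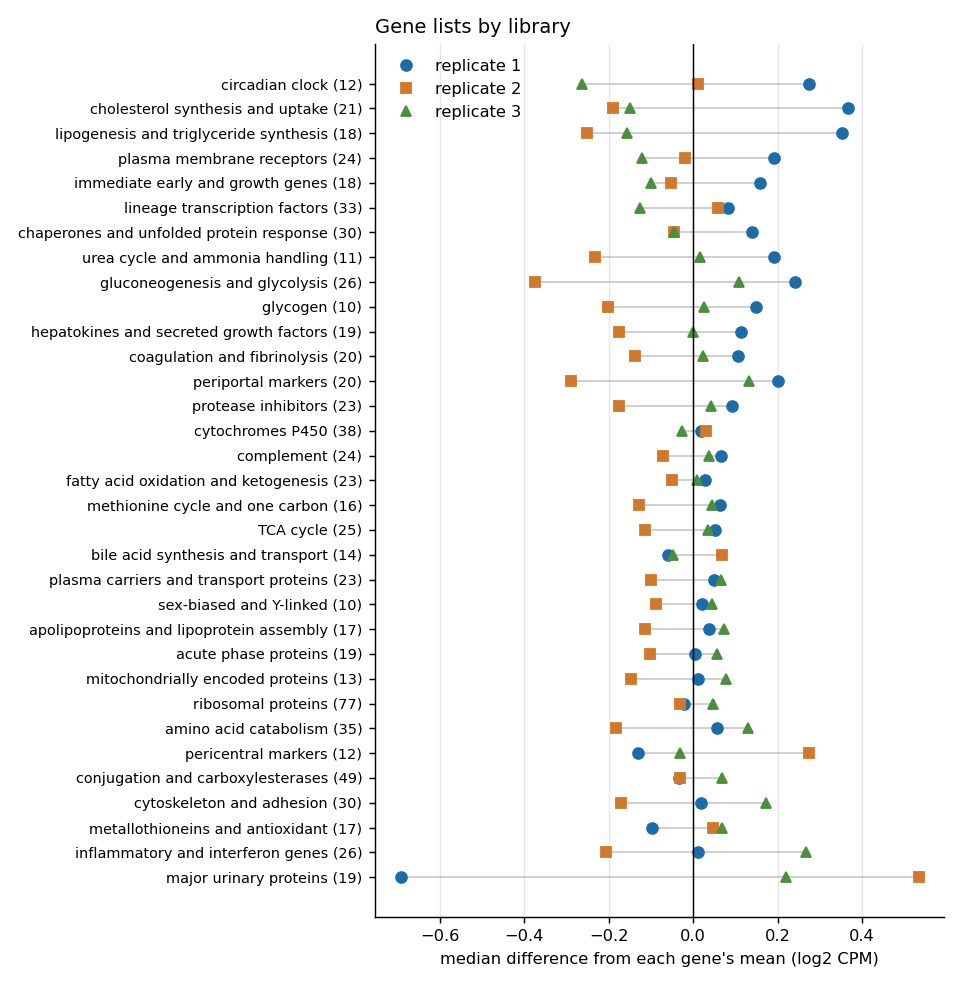
For each gene list with at least 10 members of at least 10 CPM (their number in brackets), the median over members of the difference between the log2 CPM in a library and the mean log2 CPM of that gene, with 1 symbol for each control library and a line from the lowest to the highest. Cholesterol and fat synthesis lie to the right in replicate 1, pericentral markers in replicate 2 and inflammatory and interferon genes in replicate 3, and the major urinary proteins span the widest range.

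Whole lists moved with single libraries, and the counts are read against the shares of all 7070 genes that were highest in replicate 1 (36.1%), replicate 2 (36.4%) and replicate 3 (27.5%). Replicate 1 was highest in 16 of 21 genes of cholesterol synthesis and uptake, among them Insig1, a sensor of sterols, with 264, 124 and 111 CPM. It was also highest in 13 of 18 genes of lipogenesis, where the median difference from the mean of the 3 libraries was 0.35 on the log2 scale. Beside the glycolysis genes above, it was highest in 19 of 24 plasma membrane receptors, 10 of 12 clock genes and 19 of 30 chaperones. Bhlhe40, a repressor within the clock, had 1108, 746 and 826 CPM and Nr1d1, which represses Arntl, 565, 494 and 419 CPM. In library size alone the counts for replicate 1 were 15 for cholesterol, 12 for lipogenesis, 14 for receptors, 9 for clock genes and 16 for chaperones. These were still the highest of the 3 in each, while 27.5% of all 7070 genes were highest in replicate 1 under that scaling. The endothelial and stellate markers, also highest in replicate 1 at 160 and 57.4 CPM, were present beside these lists, and their part in these counts was not tested.

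Replicate 3 was highest in 18 of 26 inflammatory and interferon genes and in 24 of 30 genes of the cytoskeleton. Isg15, an interferon-induced modifier, had 132, 180 and 440 CPM, and 9 of the 26 had a highest library at least 2 times the lowest. The leading genes of the list, B2m of class I antigen presentation at 1151, 1048 and 1341 CPM and H2-K1 at 1544, 1178 and 1645 CPM, varied less. Among the cytoskeletal genes the difference lay in smaller members, since Actg1 and Actb had ratios of 1.2 and 1.23. S100a10, an annexin partner, had 253, 180 and 289 CPM. Kupffer cell markers summed to 231 CPM in replicate 3 against 71.2 to 97.7 CPM in the others, with Cd68, Lyz2 and the C1q genes all present, and their part in these lists was not tested. Replicate 3 was also highest in 24 of 35 genes of amino acid catabolism.

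Several orders of libraries turned with the scaling and are given for that reason. The turn was not particular to these groups. Of all 7070 genes, 36.4% were highest in replicate 2 with TMM and 57.8% with library size alone. For replicate 3 these shares were 27.5% and 14.7%. Of 77 ribosomal protein genes, 63 were highest in replicate 3 with TMM and 64 in replicate 2 with library size alone, although their median SD was only 0.0591 on the log2 scale, the smallest of any list. Of 49 conjugating enzymes and carboxylesterases 27 were highest in replicate 3 with TMM and 24 in replicate 2 with library size alone. For the 154 secreted plasma protein genes of at least 10 CPM the counts were 63, 26 and 65 for replicates 1, 2 and 3 with TMM and 58, 54 and 42 with library size alone. No order of the libraries is drawn for these groups.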

How the data were processed

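RNA of primary mouse hepatocytes was sequenced as stranded, paired-end mRNA libraries. The authors trimmed reads with Trim Galore 0.6.7, aligned them with STAR 2.7.10a to GRCm38 and counted them per gene with featureCounts (Ensembl 102, paired ends, strandSpecific = 2). The deposited values are raw counts per gene, not normalized. The treatment of reads matching several places or several genes is not given in the sources used here. Totals were 30504248 to 38770694 counts.

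From these counts, edgeR 4.0.16 (R 4.3.3) gave TMM factors, CPM and the common dispersion, which was checked on simulated counts. TPM used merged exon lengths of GENCODE M21 (Ensembl 96, GRCm38), and 54 gene IDs without annotation there had no TPM. Ratios and the SD that ranked genes by spread were taken on log2(CPM + 0.1), and that ranking used genes with a mean of at least 10 CPM. An SD printed after a mean is on the scale of that mean. Coefficients of variation were taken on CPM. Shared sequence was counted in windows of 100 bases. Groups came from the genotype labels. DESeq2 1.42.0 size factors, library size alone, other lengths, filters and left-out libraries were alternatives.

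Named genes were the 5 markers and Sucnr1, the 25 of highest mean TPM, up to 4 of highest TPM and those without counts in each list, and the 15 most and 5 least variable genes. The lists and the libraries described were chosen with earlier results of these data known, and no test was made. Overlapping and copied genes were named after their values were seen. A few genes that this rule names are not reported here.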

Additional observations from a re-analysis of the deposited data

How the results depend on the processing

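With length-scaled levels in place of counts, the share of the 20 most abundant genes moved from 25.4% to 40.4% and the number of genes holding 50% of the total from 112 in the mean profile to 32. The share of secreted plasma protein genes was 31.6%, and 30.1% in counts, 38.1% with mitochondrially encoded genes left out, 38.7% with pseudogenes and short genes left out and 23.9% without the major urinary proteins. That of mitochondrially encoded proteins was 16.4%, and 8.89% in counts, 14.4% with the longest transcript as length and 20.1% with pseudogenes and short genes left out. The median coefficient of variation was 28.1% with no filter on low counts. The biological coefficient of variation was 0.117 from the median gene-wise dispersion of DESeq2 and 0.201 to 0.221 under the other settings. The settings that left out pseudogenes, short genes, the major urinary proteins or genes with shared windows were chosen after seeing the data.

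With 1 library left out, the ranges were 24.6% to 26.1% for the 20 most abundant genes, 106 to 119 genes for 50% of counts, 31.2% to 31.9% and 16.3% to 16.5% for the secreted and mitochondrial shares, 11314 to 11358 genes expressed, 7.19% to 9.98% for the median coefficient of variation and 0.206 to 0.215 for the biological one. Without replicate 3 the Kupffer cell sum fell from 133 to 84.5 CPM and the neutrophil sum from 3.41 to 1.51 CPM. Without replicate 1 the stellate sum fell from 34.1 to 22.4 CPM. No paired analysis was possible because a single group was described. With 3 libraries, spread is known only roughly, and counts of copied genes cannot be divided between the copies.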
